A study of Bos taurus with 26 samples.

Results

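The gene IDs described here are the 100 whose levels varied most among endometrium libraries of Holstein cows. They were taken from the 24616 IDs of the count tables by a rule on CPM (the raw count of an ID divided by its library's total and multiplied by 1000000). Of the 9624 IDs with a mean of at least 10 CPM over the 14 endometrium libraries and an endometrial mean under 20 times that of the corpus luteum, the 100 with the largest standard deviation (SD) of log2(CPM + 1) in endometrium were kept, and ENSBTAG00000047700 was left out by the rule. The members were thus chosen by their mean CPM in both tissues and their SD in endometrium. The files give Ensembl gene IDs without symbols, and 0 of the 24616 IDs matched the RefSeq table at hand, so the members are described by ID, level and pattern. For the same reason no cell type marker, gene list or sequence could be read, and the labelled tissues could not be checked against defining markers.

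The study sampled endometrium and corpus luteum on day 13 of the oestrous cycle from cows of the lines labelled Fert+, of high fertility, and Fert-, of low fertility. Endometrium was a biopsy of the uterine horn on the side of the corpus luteum, with 8 Fert+ and 6 Fert- libraries, and corpus luteum had 7 Fert+ and 5 Fert- libraries. All tissue was washed, freed of connective tissue and snap-frozen, and polyA RNA was sequenced. Each library also carries a batch from 1 to 4 and a parity from 2 to 4 (how many times the cow had calved), and what the batch stands for is not given in the labels. Library totals ran from 9627378 to 18008417 counts. No libraries of a group were near-copies of each other, since every pair differed by a chi-square of at least 16.5 per degree of freedom over IDs. Whether every library is from its own cow is not stated in the labels, so p-values measure only the spread among these libraries.

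The endometrium lines the uterus and consists of luminal and glandular epithelium, stroma, vessels and resident immune cells. In the luteal phase the corpus luteum secretes progesterone, under which the endometrial glands release the histotroph, the secretions that nourish an early conceptus before it attaches. A biopsy holds these cell types in whatever proportion was cut, and in such bulk RNA fewer cells of a type and less RNA per cell cannot be told apart.

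Batch and parity overlapped in endometrium. Batch 1 held Fert+ replicates 7 and 13 at parity 2 and Fert+ replicate 10 and Fert- replicates 6 and 14 at parity 4. Batch 2 held Fert- replicate 3 and Fert+ replicate 5, both at parity 4. Batch 3 held Fert+ replicate 2 and Fert- replicates 9 and 11 at parity 3 and Fert+ replicate 12 at parity 4. Batch 4 held Fert+ replicates 1 and 4 at parity 3 and Fert- replicate 8 at parity 2. The 14 libraries thus fell into 7 combinations of batch and parity, and both lines were present in every batch.

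The SDs that chose the members ran from 3.00 to 1.07 on the log2(CPM + 1) scale, with a median of 1.35, against a median of 0.23 over the 9624 IDs. Only 10 members had an SD of at least 2, and 66 were under 1.5. At the lower edge, ENSBTAG00000026708 (SD 1.07) and ENSBTAG00000037937 (1.07) were the last members, and ENSBTAG00000026111 and ENSBTAG00000007075 (1.06 each) lay just outside. These values are a description of the choice. The members' mean levels had a median of 35.9 CPM against 38.7 CPM for all 9624 IDs. They ranged from 10.01 to 2747 CPM and rested on at least 128 counts per library on average. The rule itself set the lower limit of the mean, and a member could reach it through few libraries. ENSBTAG00000002135, for example, had 149 CPM in Fert+ replicate 1 and 1.37 to 9.35 CPM in the other endometrium libraries. In the 97 members with a count in every endometrium library, the highest library exceeded the lowest by 10.5-fold to 1036-fold, with a median of 30.9-fold. In 15 members some endometrium library was under 1 CPM, and in 17 some library was over 1000 CPM. For 39 members the SD fell below that of the last member when the single highest library was left out. The libraries carried the members unequally. They held 4.81% of all counts in Fert+ replicate 1, 3.14% in Fert+ replicate 10 and 2.46% in Fert- replicate 14, and 0.619% to 1.94% in the others. The highest level of a member was found in Fert+ replicate 1 for 37 members, in Fert+ replicate 10 for 21 and in Fert- replicate 14 for 13.

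Clustering by the correlation of log2(CPM + 1) over the 14 endometrium libraries placed 75 of the 100 members in 4 groups of at least 5, and 25 members in none of these groups. The groups were formed from these same values, so their co-variation is a description and was not tested. Group 1 had 33 members with a mean pairwise r of 0.84, group 2 had 19 (0.70), group 3 had 17 (0.88) and group 4 had 6 (0.80), over 14 libraries. Across all 9624 IDs the mean pairwise r was 0.07. All points of such a correlation share the same libraries and depths.

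**Figure D1:**
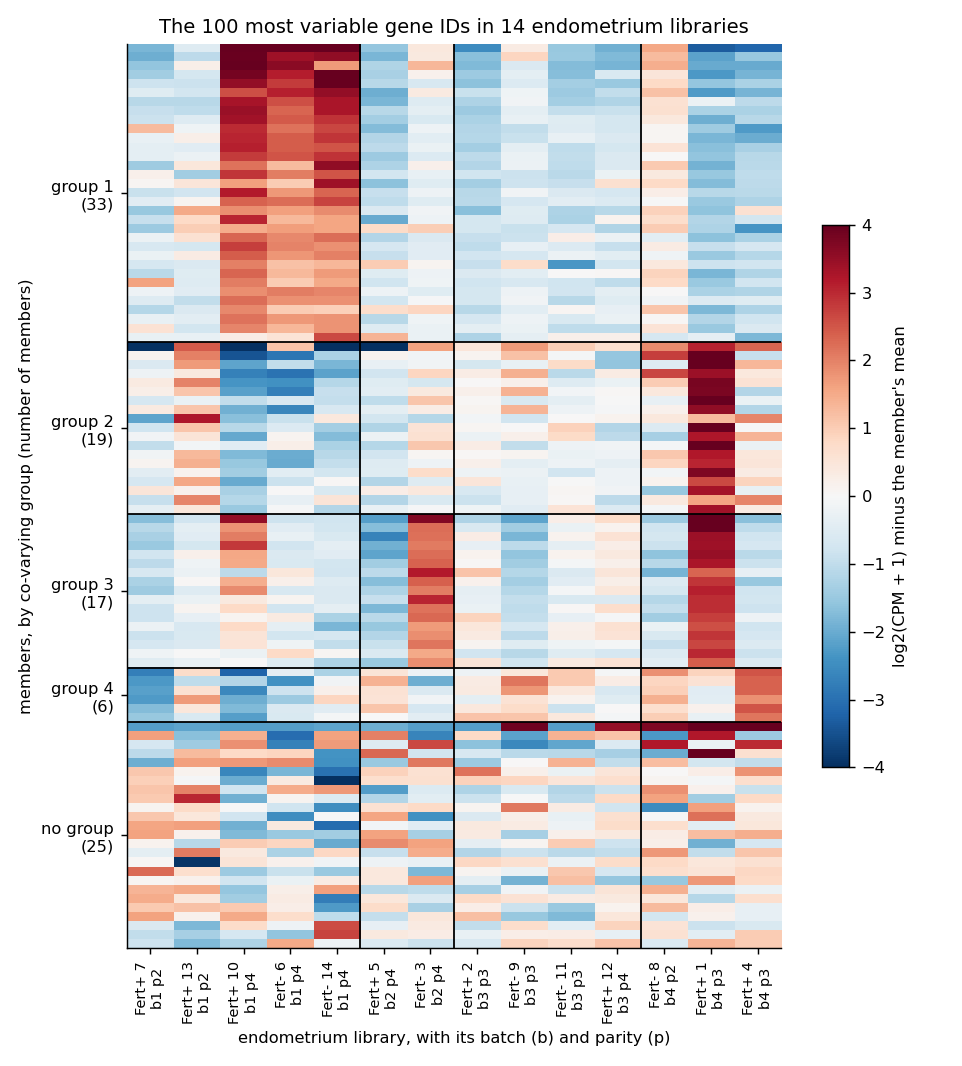
Colour shows log2(CPM + 1) minus the member's own mean over the 14 endometrium libraries; rows are the 100 members by co-varying group and columns are libraries ordered by batch and parity. Group 1 is high in the 3 batch 1, parity 4 libraries, groups 2 and 3 are high in Fert+ replicate 1, and group 4 is highest in Fert+ replicate 4.

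Group 1, the largest, was high in 3 libraries. In 30 of its 33 members the 3 highest libraries were Fert+ replicate 10 and Fert- replicates 6 and 14, which are the only endometrium libraries that combine batch 1 with parity 4. The mean log2(CPM + 1) over the group was 7.88, 7.27 and 7.74 in these, against 3.69 to 5.73 in the other 11 libraries. Neither label alone marked them. The batch 1 libraries of parity 2, Fert+ replicates 7 and 13, had group means of 4.60 and 4.92. The parity 4 libraries of other batches, Fert- replicate 3 and Fert+ replicates 5 and 12, had 5.10, 4.32 and 4.51. Both lines were among the 3 high libraries. Among the 100 members, 30 were higher in all 3 of these libraries than in any other and 6 were lower, against 3.22% and 1.59% of the 9624 IDs. The members were chosen by their spread over these same libraries, so this excess is a description. Without the 3 libraries, the mean pairwise r of group 1 over the other 11 was 0.54, against 0.09 over all 9624 IDs, and 7 of its 33 members would still have been among the 100 most variable.

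ENSBTAG00000015441 had the largest SD of log2(CPM + 1) in the group. It stood at 1272 CPM in Fert- replicate 6, 1674 in Fert+ replicate 10 and 1718 in Fert- replicate 14, while the other 11 libraries had 4.93 to 175 CPM with a median of 19.5. ENSBTAG00000014567 and ENSBTAG00000017183 were the members most like the rest of the group, with mean r of 0.91 each. ENSBTAG00000014567 had 1075, 1737 and 1141 CPM in Fert- replicate 6, Fert+ replicate 10 and Fert- replicate 14, and 61.8 to 293 CPM elsewhere. ENSBTAG00000017183 had 373, 603 and 720 CPM in the same libraries and 7.75 to 58.1 CPM elsewhere. In none of the 3 IDs did the levels of these libraries overlap with those of the others. ENSBTAG00000003398 went from 46.1, 67.5 and 51.0 CPM in them to 0 to 9.60 CPM in the rest. ENSBTAG00000005377 was less uniform: Fert- replicate 6 (53.4 CPM) and Fert+ replicate 10 (93.4) were far above Fert- replicate 14 (13.5), which was close to Fert- replicate 8 (11.1) and Fert- replicate 3 (10.3).

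Because this combination of labels was noticed in the data, the fits that compare it are descriptive. The members were also chosen by their SD over these 14 libraries, and group 1 was formed from the same values. An excess of calls or a large difference in group 1 was thus largely fixed beforehand and is no separate support. With line in the model, edgeR's quasi-likelihood test called 28 of the 99 members tested between the 3 libraries and the other 11 (adjusted p under 0.05), 27 higher and 1 lower, against 2.78% of 14243 IDs (2.36% higher, 0.421% lower). The 27 were all in group 1. Without Fert+ replicate 10 the call was made for 18 members and 77 IDs in place of 396, without Fert- replicate 14 for 214 IDs, and without Fert- replicate 6 for 676 IDs. Against only the 3 parity 4 libraries of other batches, 22 members were called, all higher and all in group 1, against 0.892% of IDs that were called higher. Against only the 2 parity 2 libraries of batch 1, 15 members were called, again all higher and in group 1, against 0.288% of IDs that were called higher. The median log2 difference over group 1 was 2.99, 3.05 and 2.61 in these 3 comparisons, against -0.02, -0.01 and 0.02 over all IDs tested.

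**Figure D2:**
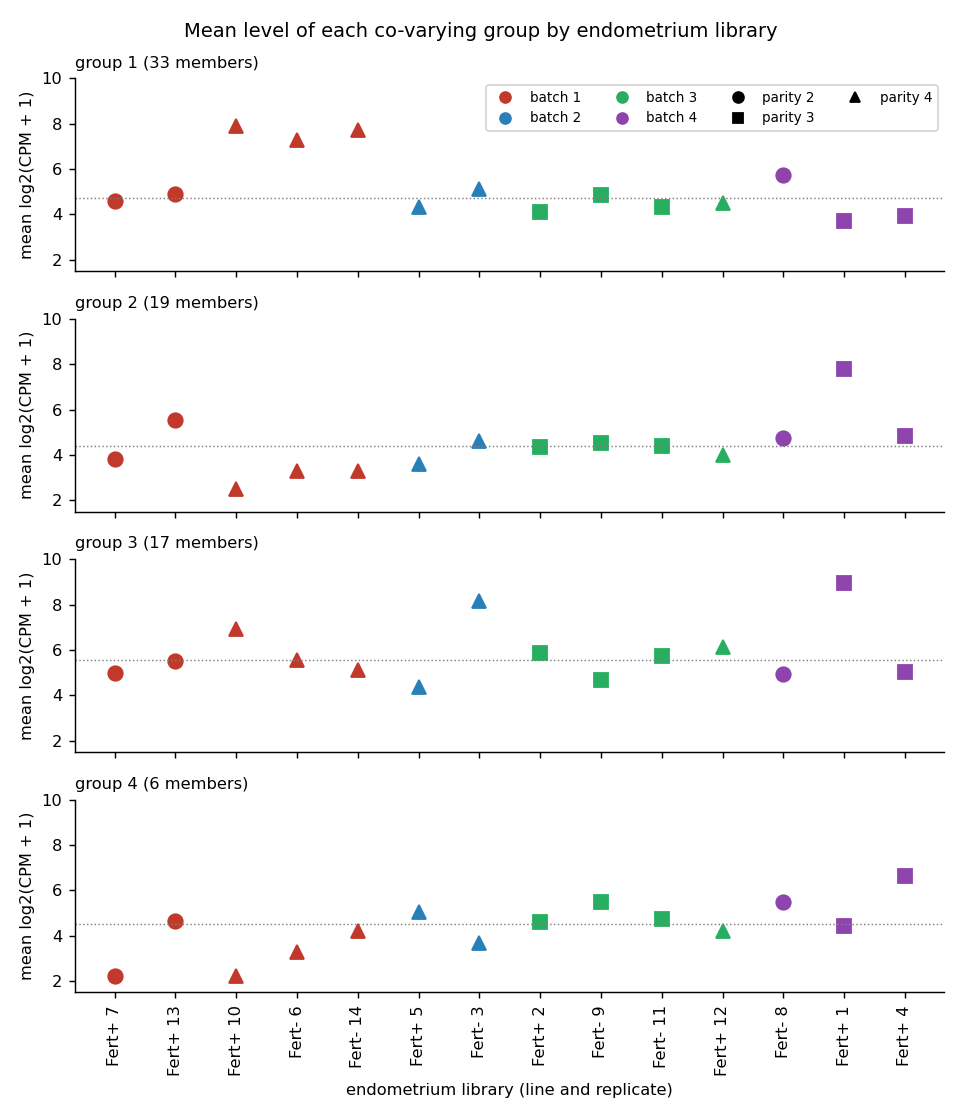
Each point is the mean log2(CPM + 1) over the members of a co-varying group in 1 endometrium library, coloured by batch and shaped by parity; the dotted line is the median of the 14 libraries. Group 1 lies at 7.27 to 7.88 in the red triangles (batch 1, parity 4) and at 3.69 to 5.73 elsewhere, and groups 2 and 3 peak at 7.81 and 8.96 in Fert+ replicate 1.

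Group 2 was high in 1 library. In 17 of its 19 members the highest level was in Fert+ replicate 1, where the group mean was 7.81 on the log2(CPM + 1) scale, against 5.55 in Fert+ replicate 13, the next, and 2.50 to 4.81 in the other 12. The 3 libraries in which group 1 was high were the lowest here, at 2.50, 3.28 and 3.27, and in 4 members they were below every other library. In Fert+ replicate 1 the members were a median of 12.2-fold above the median of the other 13 libraries. Over all 9624 IDs that ratio had a median of 0.861, and 5.42% of IDs had their highest level in this library. Leaving Fert+ replicate 1 out lowered the mean pairwise r of the group from 0.70 to 0.48, and 9 of the 19 would still have been among the 100. The second batch 4, parity 3 library of the Fert+ line, replicate 4, had a group mean of 4.81.

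ENSBTAG00000048135, in group 2, had the highest mean of all members. It reached 17230 CPM in Fert+ replicate 1, 7346 in Fert- replicate 8 and 4328 in Fert+ replicate 13, and was lowest at 96.5 CPM in Fert+ replicate 10 and 141 in Fert- replicate 6. This single ID held a large part of the members' counts in Fert+ replicate 1. Of the 2 most central members, ENSBTAG00000001197 had 163 CPM in Fert+ replicate 1 and 3.49 to 42.3 CPM elsewhere. ENSBTAG00000038639 had 320 CPM there and 1.03 to 28.02 CPM elsewhere. In both, Fert+ replicate 13 was the second highest library.

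Group 3 was high in 3 libraries that share no single batch, parity or line. Its means were 8.96 in Fert+ replicate 1, 8.15 in Fert- replicate 3 and 6.94 in Fert+ replicate 10, and 4.36 to 6.13 in the other 11. These were the 3 highest libraries in 12 of the 17 members, against 0.447% of the 9624 IDs in which they were above all others. The pattern was graded: ENSBTAG00000010069 had 7023, 3066 and 2746 CPM in these libraries, 991 CPM in Fert+ replicate 12 and 102 CPM in Fert+ replicate 5, its lowest. ENSBTAG00000008573, the most central member, had 2064, 1102 and 614 CPM in them and 81.0 to 249 CPM elsewhere. ENSBTAG00000046409 had 100.1, 23.7 and 17.2 CPM in them and 0.622 to 4.81 CPM elsewhere. ENSBTAG00000008545 had the largest SD of the group, 2.28, with 779, 447 and 390 CPM in the same libraries and 6.41 to 56.1 CPM in the others. In these 4 IDs the 3 libraries did not overlap with the other 11. The 3 libraries held parities 3, 4 and 4 and came from batches 4, 2 and 1. Over the remaining 11 libraries the mean pairwise r was still 0.63, against 0.02 over all 9624 IDs.

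Group 4 was smaller. All 6 members were highest in Fert+ replicate 4, with a group mean of 6.63 there, and lowest group means of 2.21 in Fert+ replicate 10 and 2.22 in Fert+ replicate 7. ENSBTAG00000007502 had 59.3 CPM in Fert+ replicate 4 and 0.959 to 38.6 CPM elsewhere. ENSBTAG00000013081 had 61.4 CPM there and 2.21 to 22.4 CPM elsewhere. In corpus luteum this was the only group with a high mean pairwise r, 0.67, and that value came from 1 library: the group mean was 5.45 in Fert- replicate 17 and 1.34 to 1.89 in the other 11, and r without it was -0.02. The rule's limit on the tissue ratio had used these libraries. ENSBTAG00000011941 had 30.3 CPM in Fert- replicate 17 and 0 to 0.315 CPM in the other 11. ENSBTAG00000009836 had 136 CPM there and 0.0736 to 0.639 CPM in the other 11. With endometrial means of 36.4 and 66.7 CPM, these IDs met the limit only through that library. The r of 0.67 was thus partly fixed by the rule. The corpus luteum r was 0.25 in group 1, 0.15 in group 2 and 0.18 in group 3, against 0.10 over all 9624 IDs.

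Among members with large SDs were IDs whose levels did not grade but fell into a high and a low set. In 12 members the sorted log2(CPM + 1) values held a gap of at least 2 with at least 3 libraries on each side, and these were all the IDs of the 9624 that did. In 9 of the 12 the high set was either the batch 1, parity 4 libraries or the 3 libraries of group 3. The other 3 IDs, ENSBTAG00000021565, ENSBTAG00000009656 and ENSBTAG00000037605, were also the only ones of the 12 with such a gap in corpus luteum. Corpus luteum was not searched for gaps in other IDs. Outside the 12, ENSBTAG00000011985 had 0.730 to 1.42 CPM in Fert- replicates 17, 20, 25 and 28. The other corpus luteum libraries had 9.90 CPM or more of it. The choice of the 3 IDs by their gap was made after their values were seen.

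ENSBTAG00000021565 had the largest SD of all. It was measured at 80.9, 75.1 and 52.1 CPM in Fert+ replicates 1, 4 and 12 and at 60.7 and 67.4 CPM in Fert- replicates 8 and 9. The other 9 endometrium libraries had 0 to 0.187 CPM. A count of 0 allows up to 3 counts, which is 0.181 to 0.312 CPM at these depths and covers counting error only. In corpus luteum Fert+ replicates 15, 18 and 23 and Fert- replicate 25 had 20.8 to 24.8 CPM, and the other 8 libraries had 0 to 0.168 CPM. In both tissues the level was thus either above 20 CPM or close to none, with nothing between.

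ENSBTAG00000009656 had no count in Fert+ replicates 5, 7 and 10 and Fert- replicate 14 and stood at 22.7 to 141 CPM in the other 10 endometrium libraries. In corpus luteum it had 0 CPM in Fert+ replicates 19 and 21 and 0.0839 CPM in Fert- replicate 28, against 20.05 to 44.3 CPM in the other 9. ENSBTAG00000037605 was present everywhere at 1 of 2 levels. It had 65.1 to 348 CPM in 8 endometrium libraries and 3.57 to 12.8 CPM in 6, and 61.1 to 185 CPM in 7 corpus luteum libraries and 3.66 to 5.88 CPM in 5. High and low libraries of these 3 IDs occurred in both lines in each tissue.

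The labels do not tie a corpus luteum library to an endometrium library, but 8 combinations of line, batch and parity held libraries of both tissues. In all 8, for each of the 3 IDs, the share of libraries in the high set was the same in the tissues. Other IDs were not compared in this way. For ENSBTAG00000021565 the Fert+ libraries of batch 4 and parity 3 were high in 2 of 2 in each tissue and the Fert- libraries of batch 3 and parity 3 in 1 of 2 in each. For ENSBTAG00000009656 the Fert+ libraries of batch 1 and parity 2 were high in 1 of 2 in each tissue, as were the Fert- libraries of batch 1 and parity 4. For ENSBTAG00000037605 the split was 1 of 2 in each tissue in 4 combinations. In 4 of the 8 combinations each tissue had a single library. Whether the tissues of a combination came from the same cows was not tested.

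**Figure D3:**
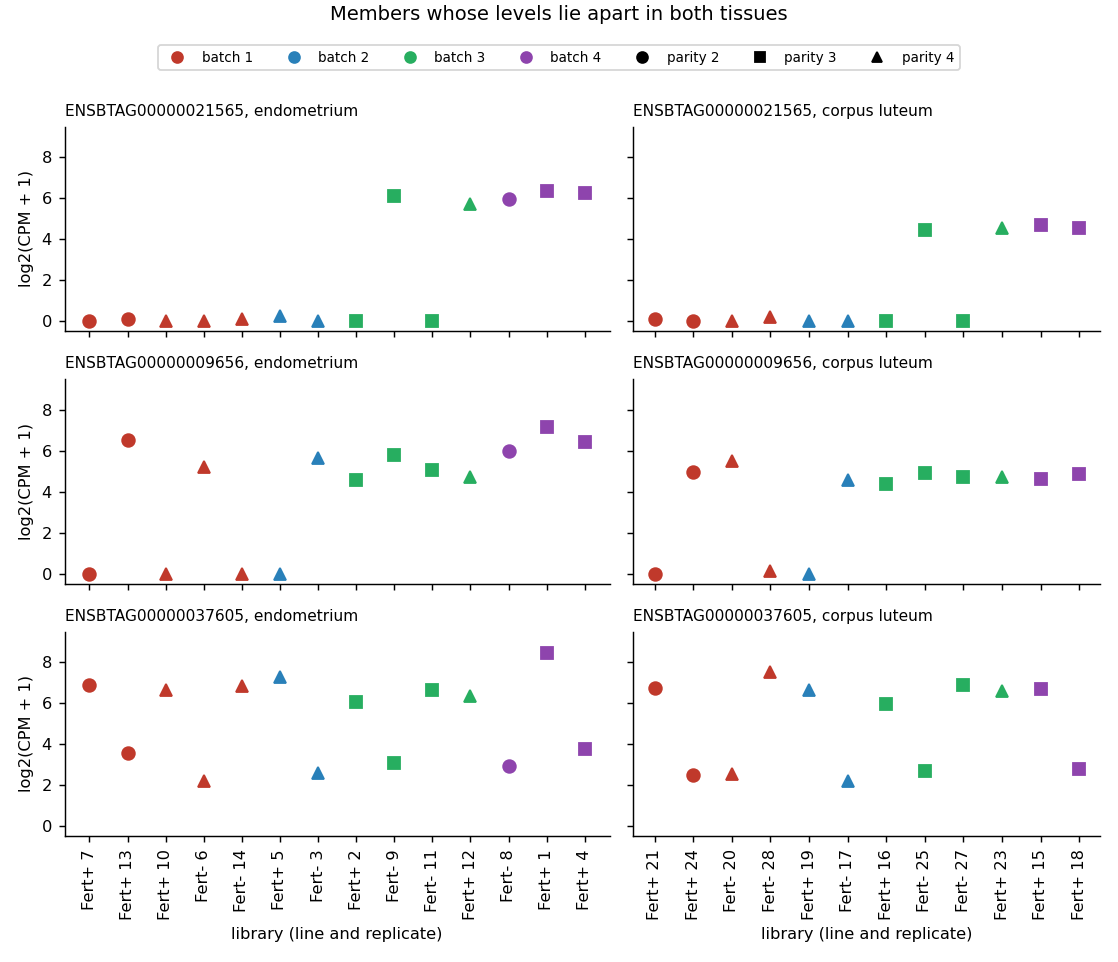
Points are log2(CPM + 1) of ENSBTAG00000021565, ENSBTAG00000009656 and ENSBTAG00000037605 in each endometrium (left) and corpus luteum (right) library, coloured by batch, shaped by parity and ordered by batch and parity. Each ID has a high and a low set of libraries with a gap of at least 2 between them in both tissues.

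ENSBTAG00000015727, the remaining ID with an SD above 2 outside the groups, had 5 libraries at 32.8 to 94.3 CPM in endometrium (Fert- replicates 3, 8 and 14 and Fert+ replicates 4 and 10) and 0.596 to 7.57 CPM in the other 9. In corpus luteum it had 20.6 CPM in Fert+ replicate 18, 33.0 in Fert- replicate 28 and 42.2 in Fert- replicate 17. The other corpus luteum libraries had 0.358 to 7.41 CPM. Whether its high libraries matched between the tissues was not tested.

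The line labels accounted for little of the members' variation as a median over the set. The line difference held a median of 5.21% of a member's sum of squares of log2(CPM + 1), where its share of the degrees of freedom is 7.69%, and 3.21% over all 9944 IDs with a mean of at least 10 CPM. By group the median line share was 12.4% in group 1, above the share of the degrees of freedom. It was 3.07%, 1.04% and 2.56% in groups 2 to 4. No member had more than 50% of its sum of squares between lines, against 0.0503% of the IDs with a mean of at least 10 CPM. The share between parities had a median of 29.8% over the members and 18.7% over all IDs, with 15.4% of the degrees of freedom, and passed 50% in 3 members against 3.75% of IDs. Between batches the medians were 32.3% and 28.7%, with 23.1% of the degrees of freedom, and 18 members passed 50% against 15.6% of IDs. With each combination of batch and parity as its own level, the medians were 62.0% and 55.3%, with 46.2% of the degrees of freedom, and 68 members passed 50% against 61.1% of IDs. The groups differed widely in this. For group 1 the combined levels held a median of 93.2%, for group 2 59.8%, for group 4 53.1% and for group 3 25.6%.

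**Figure D4:**
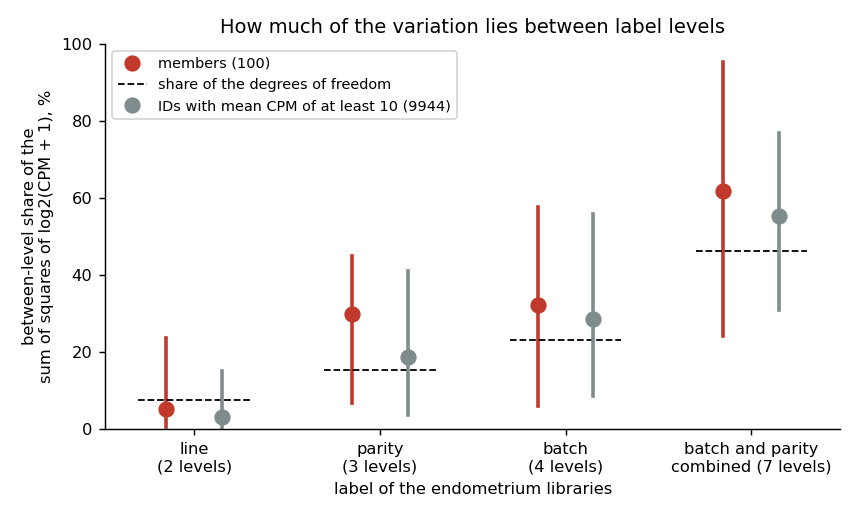
Points are the median, and bars the range from the 10th to the 90th percentile over IDs, of the between-level share of the sum of squares of log2(CPM + 1) in endometrium, for the 100 members (red) and for all 9944 IDs with a mean of at least 10 CPM (grey); dashes mark the share of the degrees of freedom. The members' median is 5.21% for line and 62.0% for batch and parity combined.

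In the comparison of lines in endometrium, with batch in the model, edgeR's quasi-likelihood test called 0 of the 99 members tested and 0% of 14243 IDs at an adjusted p under 0.05. ENSBTAG00000021565 did not pass the filter on low counts. At an unadjusted p under 0.05 there were 10 members, 4 higher and 6 lower in Fert+, against 3.00% of IDs (1.65% higher, 1.36% lower). DESeq2 called 0 members and 8 IDs, and limma-voom called 0 of either. No member, and 0% of the 9624 IDs, had all Fert+ libraries above or below all Fert- libraries. The members' line differences had a median absolute log2 size of 0.67 against 0.10 over all IDs. In group 1 all 33 members had a lower fitted level in Fert+, as had 49.5% of IDs, with a median log2 difference of -0.87, and 6 had an unadjusted p under 0.05. These members co-vary, so their signs are not independent. Of the 3 libraries in which the group was high, 2 were Fert-. Without these 3, 20 members of group 1 had an unadjusted p under 0.05, all lower in Fert+, and the smallest adjusted p among members was 1.00. Without Fert+ replicate 10 alone, 31 members had an unadjusted p under 0.05, 28 of them lower in Fert+, and 0 were called. Over all IDs, the alternative runs of this comparison, these fits included, gave 257 to 887 with an unadjusted p under 0.05, against 428 in the main fit.

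The members with the smallest p for line in endometrium were 2 in each direction, none of them called. ENSBTAG00000012467, in group 1, ranged from 0.365 to 38.2 CPM in Fert+ with a median of 2.42, and from 1.40 to 73.3 CPM in Fert- with a median of 10.6. Its log2 difference was -2.21 with an SE of 0.68 (edgeR, unadjusted p = 0.00735, adjusted p = 0.981). The lines overlapped over most of their range, and within batches the difference of mean log2(CPM + 1) was -2.86, -2.31, -0.12 and -3.23 in batches 1 to 4. ENSBTAG00000002092, also in group 1, had medians of 1.63 CPM in Fert+ and 8.21 CPM in Fert-, a log2 difference of -1.75 with an SE of 0.63, and within-batch differences of -2.003, -1.44, -0.26 and -2.53. The members that were higher in Fert+ lay in no group. ENSBTAG00000002252 ranged from 0.517 to 40.6 CPM in Fert+ and from 0.181 to 13.2 CPM in Fert-, with a log2 difference of 1.85 and an SE of 0.71. Its within-batch differences were 1.93, 0.30, 1.35 and 1.03.

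ENSBTAG00000011985 was named by the line comparison in both tissues. In endometrium it had 2.29 to 33.4 CPM in Fert+ (20.3 ± 11.5, SD, n = 8) and 2.98 to 12.6 CPM in Fert- (6.29 ± 4.66, SD, n = 6). Fert+ replicate 10 was the lowest library of all, and the other 7 Fert+ libraries were at 11.8 CPM or more. In corpus luteum it had 9.90 to 32.2 CPM in Fert+ (22.2 ± 8.80, SD, n = 7), and in Fert- 0.730, 0.839, 1.02, 1.42 and 12.4 CPM. Only Fert- replicate 27 overlapped with the Fert+ range. No library lay between 3.44 and 11.8 CPM in endometrium or between 1.42 and 9.90 CPM in corpus luteum. The levels thus fell into a low and a high set, which a mean and SD do not describe. The log2 difference was 1.73 with an SE of 0.54 in endometrium (edgeR, unadjusted p = 0.00802, adjusted p = 0.981) and 2.77 with an SE of 0.86 in corpus luteum (unadjusted p = 0.00901, adjusted p = 0.212). Within batches it was higher in Fert+ in all 4 endometrium batches, by 0.94 to 2.94, and in the 3 corpus luteum batches with both lines, by 1.42 to 3.59. The labels do not say whether the tissues share cows, so the 2 tissues may not be separate support.

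For batch in endometrium, with line in the model, edgeR called 0 of 99 members and 0.0562% of IDs, which is 8 IDs. At an unadjusted p under 0.05 there were 43 members against 13.2% of IDs, and 29 of the 43 were in group 1, 8 in group 2 and 3 in group 4. The call depended on the tool and on single libraries: DESeq2 called 27 members and 5.76% of IDs, limma-voom 0 members, and edgeR 6 members without Fert+ replicate 7 and 1 without Fert+ replicate 13. With 1 library left out, edgeR called 0 to 22 IDs in all. Without the 3 batch 1, parity 4 libraries, 26 members had an unadjusted p under 0.05 and 0 were called. Over all IDs, the alternative runs of this comparison, this fit included, gave 1169 to 2490 with an unadjusted p under 0.05, against 1885 in the main fit. The members with the smallest p were ENSBTAG00000011207 and ENSBTAG00000007196, both in group 1. ENSBTAG00000011207 had 102 and 278 CPM in the parity 2 libraries of batch 1, 528 to 914 CPM in its parity 4 libraries, and 22.98 to 122 CPM in batches 2 to 4 (adjusted p = 0.0799). ENSBTAG00000007196 had 481 and 857 CPM in the parity 2 libraries of batch 1 and 2161 to 2843 CPM in its parity 4 libraries, against 179 to 673 CPM in the other batches (adjusted p = 0.0831). In both IDs 1 parity 2 library of batch 1 lay within the range of the other batches and 1 lay above it.

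For parity, with batch and line in the model, edgeR called 0 members and 0% of IDs. At an unadjusted p under 0.05 there were 27 members against 7.01% of IDs, 20 of them in group 1. DESeq2 called 6 members and 0.372% of IDs, limma-voom 0, and edgeR 2 members without Fert- replicate 8 or without Fert+ replicate 12. With 1 library left out, edgeR called 0 to 5 IDs in all. The smallest p were those of ENSBTAG00000005373 and ENSBTAG00000002080, again in group 1. ENSBTAG00000005373 had 821 to 1149 CPM in the batch 1 libraries of parity 4, and in the others 86.2 to 123 CPM at parity 4, 62.4 to 131 CPM at parity 3 and 127 to 187 CPM at parity 2 (adjusted p = 0.708). ENSBTAG00000002080 had 268, 415 and 1403 CPM in the first of these sets, 41.3 to 205 CPM in the other parity 4 libraries, 38.6 to 73.4 CPM at parity 3 and 140 to 232 CPM at parity 2 (adjusted p = 0.708). Parity 4 thus spanned both the highest libraries and levels within the range of the other parities. These 14 libraries were the ones whose spread chose the members, so an excess of small p over all IDs describes how that spread was distributed and supports nothing further.

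Corpus luteum gave libraries whose spread the rule did not use, but their mean CPM did enter it through the tissue ratio. An ID nearly absent from most of them could thus pass only if some were high. This held for ENSBTAG00000021565, ENSBTAG00000011941, ENSBTAG00000009836 and ENSBTAG00000039046, so their large SD in this tissue was partly fixed by the rule. How many other members this held for was not counted. The labels do not say whether the tissues share cows. In corpus luteum, 65 members had an SD of log2(CPM + 1) above the 90th percentile of the 9624 IDs, where 10% lie by construction. The median SD was 0.75 for the members and 0.29 for all, and 87 members had a smaller SD in corpus luteum than in endometrium. By group, 23 of 33, 13 of 19, 5 of 17 and 5 of 6 members passed that percentile in groups 1 to 4, and 19 of the 25 members outside them. Group 3 was the exception, with a median SD of 0.48 in corpus luteum. The mean level was lower in corpus luteum than in endometrium for 84 members and higher for 16.

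**Figure D5:**
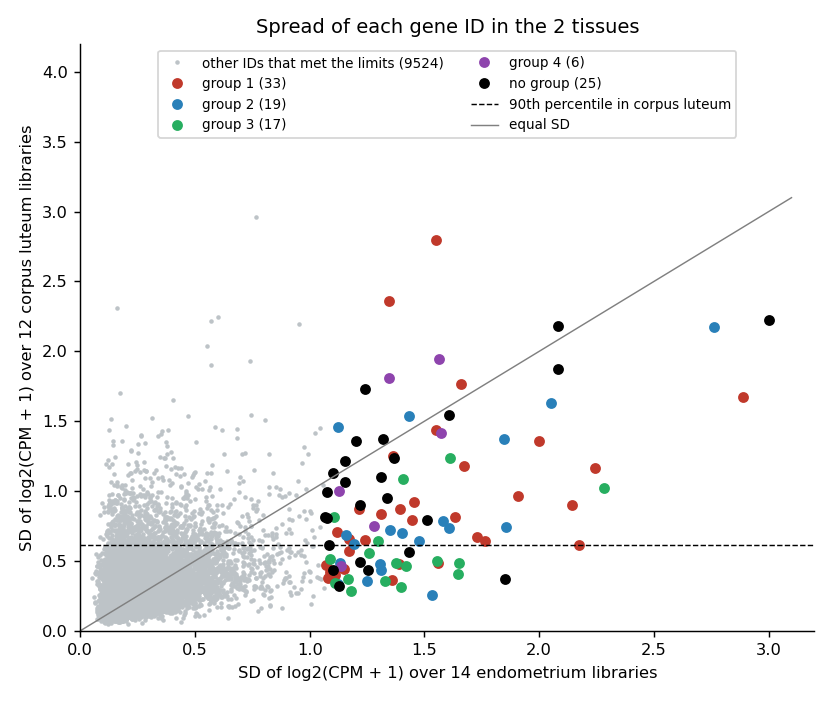
Each point is a gene ID, with the SD of log2(CPM + 1) over the 14 endometrium libraries on the horizontal axis and over the 12 corpus luteum libraries on the vertical axis; members are coloured by co-varying group. The grey line marks equal SDs and the dashed line the 90th percentile in corpus luteum, above which 65 of 100 members lie.

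The combination of batch 1 and parity 4 did not mark the group 1 members in corpus luteum. Its libraries there, Fert- replicates 20 and 28, had group 1 means of 4.458, the lowest of the 12 libraries, and 5.24, against 4.463 to 6.27 in the other 10, with the highest mean in Fert- replicate 17. ENSBTAG00000014567 had 144 and 134 CPM in Fert- replicates 20 and 28 and 115 to 368 CPM in the other corpus luteum libraries. ENSBTAG00000005353 and ENSBTAG00000039046, also of group 1, had the largest corpus luteum SDs of all members, 2.80 and 2.36. ENSBTAG00000005353 ran from 5.27 CPM in Fert+ replicate 18 to 2208 CPM in Fert- replicate 17, with a graded series between. ENSBTAG00000039046 had 85.8 CPM in Fert- replicate 17 and 106 CPM in Fert- replicate 28, and 0 to 1.40 CPM in the other 10.

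Between the lines in corpus luteum, edgeR with batch in the model called 0 of the 97 members tested and 0% of 13462 IDs. At an unadjusted p under 0.05 there were 26 members, 7 higher and 19 lower in Fert+, against 21.1% of IDs (12.1% higher, 9.01% lower), and the median log2 difference was -0.41 over the members and 0.03 over all IDs. DESeq2 called 6 members and 1.45% of IDs, limma-voom 0, and edgeR 4 members without Fert+ replicate 23 (and 908 IDs) and 1 without Fert- replicate 27. Without the batch term edgeR called 7 members and 1191 IDs, and with parity beside batch 10 members and 4006 IDs. No member had all Fert+ libraries above or below all Fert- libraries, against 2.68% above and 0.249% below of the 9624 IDs. Batch 4 held only Fert+ in this tissue.

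Beside ENSBTAG00000011985, the member with the smallest p for a higher level in Fert+ was ENSBTAG00000012991, of group 1. It ranged from 129 to 295 CPM in Fert+ (217 ± 59.1, SD, n = 7), and in Fert- it had 29.9, 71.7, 111, 112 and 156 CPM. The ranges overlapped only at Fert- replicate 25, whose 156 CPM was above the lowest Fert+ library. Its log2 difference was 1.05 with an SE of 0.24 (edgeR, unadjusted p = 0.00118, adjusted p = 0.212) and, in endometrium, -0.57 with an SE of 0.55. Lower in Fert+ were ENSBTAG00000000575, outside the groups, and ENSBTAG00000007450, of group 2. ENSBTAG00000000575 ranged from 6.95 to 45.7 CPM in Fert+ and had 38.5, 50.5, 67.8, 72.2 and 148 CPM in Fert-, so that only Fert+ replicate 19 and Fert- replicate 20 overlapped. Its log2 difference was -2.07 with an SE of 0.47 (edgeR, unadjusted p = 0.00123, adjusted p = 0.212), and the difference was -1.79, -0.65 and -2.32 in the 3 batches with both lines. In endometrium its difference had the same sign, -0.88 with an SE of 0.41. ENSBTAG00000007450 ranged from 2.58 to 8.42 CPM in Fert+ and from 6.10 to 18.7 CPM in Fert-, with a log2 difference of -1.20 and an SE of 0.32 (edgeR, unadjusted p = 0.00399, adjusted p = 0.212) and differences of -1.06, -1.34 and -0.34 within batches. In endometrium it went the other way, 0.67 with an SE of 0.61.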

How the data were processed

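The authors deposited raw counts per Ensembl gene ID for each library. Per the submitters' processing notes the tools were featureCounts, STAR 2.3.0, Trim Galore, FastQC 0.10.0 and CASAVA 1.9, with the build UMD3.1. Not given in the sources used here were the strand setting, the annotation release and what was done with multiply mapped reads. The TruSeq v2 kit named in the labels does not mark strand, so counts of overlapping or near-identical genes are uncertain. Of the 24616 IDs, 4236 had no count.

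From these counts, CPM, SDs, correlations and sums of squares were computed with Python 3.11.15. Tests used edgeR 4.0.16 in R 4.3.3 within a tissue (TMM scaling, filterByExpr by line, robust quasi-likelihood fit), with Benjamini-Hochberg adjustment over all IDs tested. The quasi-likelihood F test gives no SE. Each SE stated with a log2 difference is the absolute difference divided by the square root of the F statistic. The script was tested on simulated data. Alternatives were other tools (DESeq2 1.42.0, limma-voom 3.58.1), scalings, filters, covariates and each library left out. Members were grouped by average-linkage clustering on 1 minus Pearson r, split at a distance of 0.5. IDs were named by rule: the 10 largest SDs, the smallest p in each test, the edge of the set, central group members, the highest means and the largest corpus luteum SDs. The members and lists were chosen with earlier results of these data known, and the fits on batch 1 with parity 4 were added after seeing the data.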

Additional observations from a re-analysis of the deposited data

Results flagged for a closer look

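Within each line and tissue, single libraries were set apart when their gap to the nearest other library was above the 95% critical value of Dixon's ratio. Of 152 group and item combinations tested, 25 met this. About 1 in 20 would by chance among independent items not chosen by their spread. Most items here are members chosen by their spread in endometrium, or means of groups of them, and many co-vary. The 25 can thus not be read against that rate. All values are log2(CPM + 1) unless named otherwise.

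Fert+ replicate 10 stood apart from the other 7 Fert+ endometrium libraries most often. It was the highest for the group 1 mean (7.88) and for 9 of its members. These were ENSBTAG00000015441 (10.71), ENSBTAG00000003398 (6.10), ENSBTAG00000005377 (6.56), ENSBTAG00000017183 (9.24), ENSBTAG00000012467 (5.29), ENSBTAG00000012991 (7.20), ENSBTAG00000005373 (9.82), ENSBTAG00000014567 (10.76) and ENSBTAG00000005353 (10.74). The same library was the lowest for ENSBTAG00000011985 (1.72) and ENSBTAG00000002252 (0.60). In the Fert- endometrium, replicate 3 was the highest for the group 3 mean (8.15) and for its central members ENSBTAG00000008573 (10.11) and ENSBTAG00000046409 (4.63). Replicate 14 was the highest for ENSBTAG00000026708 (7.80) and the lowest for ENSBTAG00000009656 (0).

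In the Fert- corpus luteum, replicate 17 was the highest for the members' share of all counts (1.28%), for the group 4 mean (5.45) and for ENSBTAG00000007502 (6.97). Replicate 25 was the highest for ENSBTAG00000021565 (4.45), replicate 27 for ENSBTAG00000011985 (3.74), and replicate 28 the lowest for ENSBTAG00000009656 (0.12). In the Fert+ corpus luteum, replicate 19 was the highest for ENSBTAG00000003398 (3.41) and replicate 23 for ENSBTAG00000013081 (3.35). Causes of these single-library values were not tested.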

How the results depend on the processing

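Of the 100 members, 66 remained with a mean of at least 20 CPM, 62 with the median absolute deviation in place of the SD, 64 without the 3 batch 1, parity 4 libraries and 56 without these and Fert+ replicate 1, and 80 to 97 when 1 library was left out. For line in endometrium DESeq2 called 8 IDs, and leaving out 1 library gave 0 to 1 (members: 0). For batch, the 8 IDs became 13 with no filter, 820 with DESeq2, 0 with limma-voom, 1 with parity in the model, 0 without the 3 libraries and 0 to 22 with 1 library left out; members called were 27 with DESeq2 and 0 to 6 with 1 left out. For parity, DESeq2 called 53 IDs and 6 members, and leaving out 1 library gave 0 to 5 IDs and 0 to 2 members. For line in corpus luteum, IDs called were 4 with no filter, 195 with DESeq2, 1191 with no batch term, 4006 with batch and parity, and 0 to 908 with 1 library left out; members were 6 with DESeq2, 7 with no batch term, 10 with batch and parity, and 0 to 4 with 1 left out. For the batch 1, parity 4 libraries against the rest, leaving out 1 library gave 77 to 676 IDs and 18 to 31 members. The causes were not tested. No ID named for a line difference changed direction under any alternative run. These IDs were named for their small p in the same libraries, so a stable direction was likely beforehand and is no separate support. No paired analysis was possible because the lines share no replicate number in the labels.

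The largest group had 31 to 34 members when 1 library was left out. With 1 to 3 libraries in each combination of batch and parity, effects of batch, parity and single libraries cannot be separated further. Members with libraries near 0 rest on few counts there, and their fold changes depend on the pseudocount or prior count.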
